A study of Mus musculus with 7 samples.

Results

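Pyroptosis and necroptosis are forms of lytic cell death, and 9 genes that encode their core machinery in the mouse were examined in myocardial tissue after myocardial infarction (MI). They were taken by symbol from the 56980 genes of the deposited expression table, namely the inflammasome genes Nlrp3, Pycard and Casp1, the pyroptosis genes Casp4 and Gsdmd, and Ripk1, Ripk3, Mlkl and Casp8 of the necroptosis pathway. In pyroptosis, an inflammasome assembled from a sensor and an adaptor activates inflammatory caspases, which cleave gasdermin D so that it opens pores in the plasma membrane and releases interleukin-1 family cytokines. In necroptosis, the kinases RIPK1 and RIPK3 lead to phosphorylation of MLKL, which ruptures the membrane, and caspase-8 restrains this route by cleaving the kinases. Both routes are studied in the infarcted heart, where dying cardiomyocytes and incoming leukocytes meet, and both are controlled to a large extent at the protein level, which was not measured here.

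Tissue was collected 4 days after surgery from male C57BL/6J mice bought at 8 weeks of age, all labelled wild type. The MI group (3 mice) had the left coronary artery ligated, and the sham group (4 mice) had the same operation without ligation. Each mouse gave 1 RNA library. The study describes the MI samples as ischemic myocardium, and the sources used here do not say how the piece was cut, how large the infarct was or how many cells of each type the tissue held, and in bulk tissue fewer or more cells of a type cannot be told apart from less or more RNA per cell.

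The values are FPKM, fragment counts scaled to the length of the gene and the size of the library, at depths between 19977714 and 23610871 fragments per library. MI replicate 2 stood apart from the other MI mice. Its label was kept, but it could not be checked from these files that its tissue was infarcted, and every MI mean and fold change that includes it carries this limit. Over the genes tested its log2 values correlated with those of the single sham mice at an r of 0.984 to 0.987, close to the 0.989 to 0.992 among sham mice, whereas MI replicate 1 had 0.878 to 0.881 and the third MI mouse 0.903 to 0.906. Fits and counts of genes are therefore given with and without that mouse, and why it was like the sham mice was not tested. Cardiomyocyte markers were high in every library, with a summed FPKM of 8 genes between 9217 and 14262. A gene was tested with limma on log2(FPKM + 1) if its FPKM was at least 1 in at least 3 mice, which left 11431 genes, and the median of their log2 fold changes, MI against sham, was 0.21 (0.33 without MI replicate 2).

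Pycard, Gsdmd, Ripk1, Mlkl and Casp8 passed this filter. Nlrp3, Casp1, Casp4 and Ripk3 were below it and were fitted together with the 30504 genes above 0 in any mouse. The 5 that passed are not the whole set, and Ripk1 and Mlkl reached the minimum in all 3 MI mice but in only 1 sham mouse. Fold changes are on the log2(FPKM + 1) scale, which understates the change of genes as low as these, so ratios of mean FPKM are given beside them.

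In GENCODE M21 on GRCm38 the genes lie on 8 chromosomes, with Nlrp3 at chr11:59541568-59566956 (plus strand), Pycard at chr7:127989708-127993867 (minus strand), Casp1 at chr9:5298517-5307265 (plus strand), Casp4 at chr9:5308828-5336783 (plus strand), Gsdmd at chr15:75862327-75867408 (plus strand), Ripk1 at chr13:34002363-34037147 (plus strand), Ripk3 at chr14:55784995-55788865 (minus strand), Mlkl at chr8:111311797-111338177 (minus strand) and Casp8 at chr1:58795374-58847503 (plus strand). The values count whole genes, so no exon or isoform was measured apart.

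RefSeq promoters on GRCm38.p6, from 250 bases before to 50 bases after a start site, were held for 8 of the 9 genes (11 promoters, with more than 1 start for Nlrp3, Casp4 and Ripk1). Gsdmd is named only. They were searched on both strands for an interferon-response-like motif (GAAANNGAAA), a gamma-activated site (TTCNNNGAA), the PU.1 core (GAGGAAG) and the kappa-B consensus, motifs of the interferon, STAT, myeloid and NF-kappa-B pathways. The following 3 promoters are shown because they hold more than 1 match and between them show each of the 4 motifs, with the matches in capitals. The other Casp4 start lies 11 bases downstream and has the same kappa-B matches.
Casp4, plus strand, chr9:5308599-5308898: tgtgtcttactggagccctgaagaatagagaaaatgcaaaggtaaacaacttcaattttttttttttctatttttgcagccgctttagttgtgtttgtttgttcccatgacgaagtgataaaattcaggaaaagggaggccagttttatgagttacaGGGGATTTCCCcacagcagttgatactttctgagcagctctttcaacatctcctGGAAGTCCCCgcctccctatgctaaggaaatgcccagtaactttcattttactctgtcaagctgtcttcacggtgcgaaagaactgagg
Nlrp3, plus strand, chr11:59542436-59542735: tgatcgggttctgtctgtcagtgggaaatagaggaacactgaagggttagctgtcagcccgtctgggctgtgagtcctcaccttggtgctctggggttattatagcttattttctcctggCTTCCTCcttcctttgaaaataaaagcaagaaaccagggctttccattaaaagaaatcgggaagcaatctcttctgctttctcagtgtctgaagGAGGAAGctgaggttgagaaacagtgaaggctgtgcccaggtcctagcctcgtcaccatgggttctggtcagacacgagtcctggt
Ripk1, plus strand, chr13:34002624-34002923: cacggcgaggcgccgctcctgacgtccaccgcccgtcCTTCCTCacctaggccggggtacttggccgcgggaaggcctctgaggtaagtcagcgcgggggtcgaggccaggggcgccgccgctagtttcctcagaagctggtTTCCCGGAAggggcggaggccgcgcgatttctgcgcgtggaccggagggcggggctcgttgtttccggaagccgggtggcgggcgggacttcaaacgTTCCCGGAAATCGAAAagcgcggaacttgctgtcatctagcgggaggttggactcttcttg
The capitals in Casp4 are kappa-B matches that begin 93, 92 and 39 bases before the start site, the first pair overlapping each other. Those in Nlrp3 are PU.1 cores that begin 130 and 36 bases before the start. The Ripk1 stretch held a PU.1 core 213 bases before the start and gamma-activated sites 108 and 11 bases before it, and the latter overlapped the interferon-response-like match that begins 5 bases before the start. Of the 8 genes, Ripk1 alone held the interferon-response-like motif and the gamma-activated site, Casp4 and Nlrp3 (at its other start) held kappa-B, and Nlrp3, Pycard and Ripk1 held the PU.1 core. Of all 32851 promoters in the table, 3.44% held the interferon-response-like motif, 8.30% the gamma-activated site, 8.46% kappa-B and 13.6% the PU.1 core. None of these letters occurred in the windows of Casp1, Casp8, Mlkl or Ripk3. A match is a description of the sequence and no evidence that a factor bound there.

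Without MI, the 9 genes spanned a wide range of levels. Per length, Casp8, Pycard and Gsdmd were highest in sham hearts, with 2.24 ± 0.479, 2.18 ± 0.229 and 2.11 ± 0.0702 FPKM (SD, n = 4). Ripk1 (0.978 ± 0.108) and Mlkl (0.920 ± 0.149) followed. Ripk3 (0.581 ± 0.0298), Casp4 (0.451 ± 0.0811) and Casp1 (0.354 ± 0.0717) were lower, and Nlrp3 was lowest at 0.123 ± 0.0527 FPKM. Neighbours in this order whose sham ranges overlapped were Casp8 and Pycard, Pycard and Gsdmd, Ripk1 and Mlkl, and Casp4 and Casp1. In MI hearts the mean levels of Gsdmd (6.16 ± 3.46 FPKM, n = 3) and Casp8 (5.63 ± 2.77) came before Pycard (3.16 ± 1.504), Mlkl (2.14 ± 1.18) came before Ripk1 (1.93 ± 0.689), and Nlrp3 was again the lowest (0.542 ± 0.375). Ripk1 was above Mlkl in 2 of the 3 MI mice, and the order of their means rests on MI replicate 1. Without MI replicate 2 the means were 8.05 for Gsdmd, 7.19 for Casp8, 3.89 for Pycard, 2.70 for Mlkl, 2.42 for Ripk3 and 2.32 for Ripk1. The order rests on the gene lengths the authors divided by. These were longer than the exon length in GENCODE M21 for every one of the 9, from 1.11 times for Pycard to 3.99 times for Casp1 (5969 against 1497 bases). With the same fragments divided by the GENCODE lengths, Casp1 moved from place 8 to place 4 of the sham order. Gsdmd then came first, and Ripk3 was above Ripk1 in both group means. Fragments outside the GENCODE exons could not be removed for this. It therefore raises most the genes whose lengths differ most, and is not the level GENCODE would give.

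**Figure D1:**
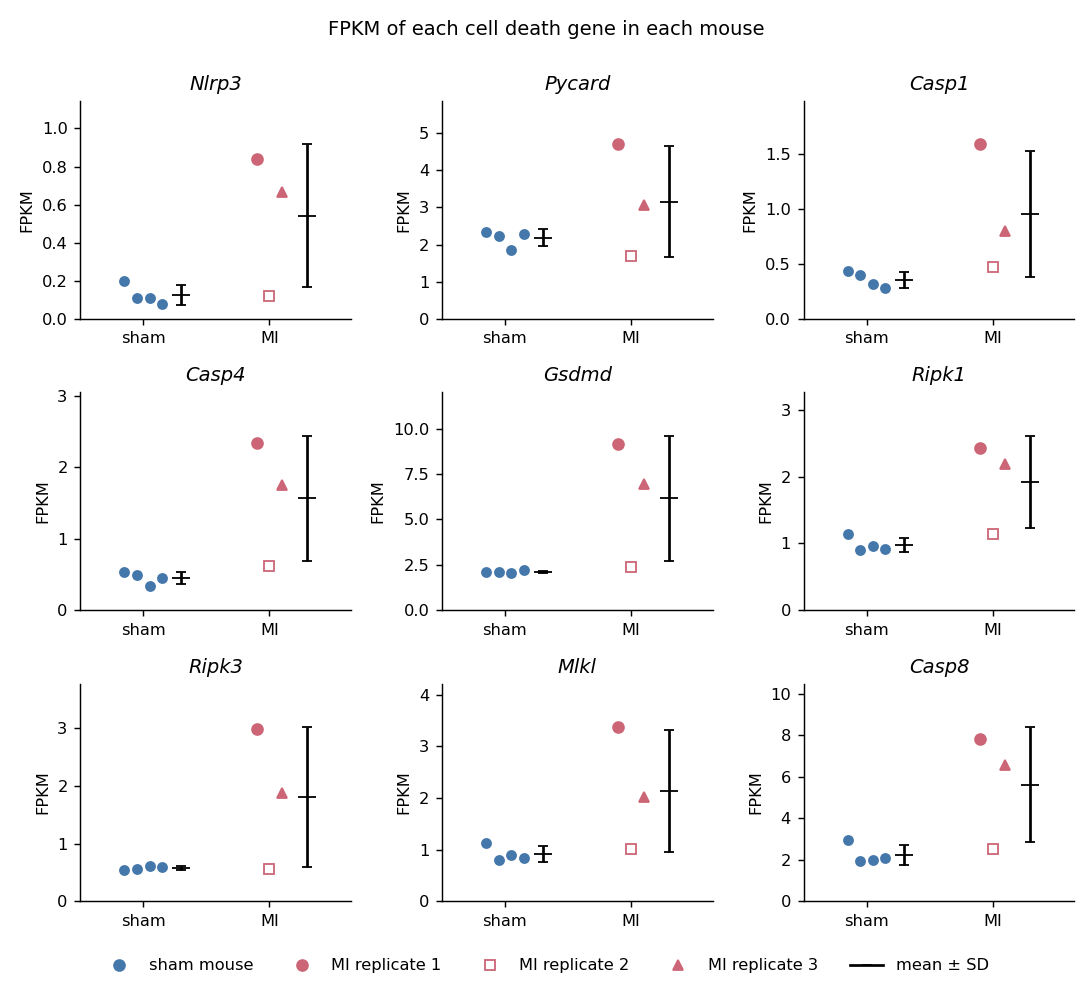
FPKM (vertical axes, starting at 0) of the 9 genes in each of 4 sham and 3 MI mice, with the mean and SD of each group in black. MI replicates 1 and 3 lie above all sham mice in each of the 9 panels, and MI replicate 2 (open square) lies at or near the sham mice.

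The same order of mice held for every gene. In all 9, MI replicate 1 was highest, MI replicate 3 came next, and both were above every sham mouse, as in 29.8% of all genes above 0. MI replicate 1 was between 2.16 times (Pycard) and 6.82 times (Nlrp3) the sham mean and MI replicate 3 between 1.41 and 5.42 times, with the same genes at the ends, while MI replicate 2 was between 0.781 times (Pycard) and 1.35 times (Casp4). The typical tested gene was also higher in MI replicates 1 and 3. The median ratio of a gene to its geometric mean over all mice was 1.28 and 1.21 there. That median was 0.908 in MI replicate 2 and 0.908 to 0.933 in the sham mice. MI replicate 2 was above the sham range for Casp1, Casp4, Gsdmd and Ripk1, within it for Nlrp3, Ripk3, Mlkl and Casp8, and below it for Pycard. The comparison of 3 MI with 4 sham mice passed an adjusted p of 0.05 for 0 of the 5 genes tested with limma, a threshold that 0.0175% of all genes tested passed with MI higher. At an unadjusted p under 0.05, 4 of the 5 were higher in MI, where 29.5% of all genes tested were. Ripk1 and Mlkl are among these 4 and passed the filter through the MI mice, so nothing is concluded from this count. Over all genes tested 3370 were higher and 1126 lower at that threshold, and 1904 higher and 2400 lower after quantile normalization. Under it each of the 9 genes had a log2 fold change above 0, but that of Pycard was only 0.045 (limma adjusted p = 0.835). Of the 9 fitted with all genes above 0, 8 had an unadjusted p under 0.05 with MI higher, against 20.6% of those genes. The groups did not overlap, with MI higher, for 2 of the 5 tested, against 16.1% of all genes tested, and for 4 of the 9, against 12.0% of all genes above 0. Without sham replicate 1, Nlrp3, Mlkl and Casp8 joined them, which made 7 of the 9, against 14.9% of all genes above 0 in the same mice.

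Without MI replicate 2, each of the 5 tested genes rose in MI at an adjusted p under 0.05 (limma), but so did 57.0% of all genes tested. Fitted with all genes above 0, each of the 9 did, against 35.8% of those genes, and in each of the 9 the groups no longer overlapped, as in 43.4% of those genes. Without MI replicate 1, the log2 fold changes lay between 0.064 (Pycard, below the 0.14 of the median gene of that fit) and 0.74 (Gsdmd), and without MI replicate 3 between 0.31 (Pycard) and 0.91 (Gsdmd). The exact permutation test of a single gene could give no p under 0.0571 with all mice and none under 0.133 without that mouse, and 0.133 was the value of each of the 9 genes without it.

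Nlrp3 encodes the sensor of the best-known inflammasome. Its FPKM was 0.199, 0.107, 0.108 and 0.0778 in the sham mice and 0.838, 0.120 and 0.666 in MI replicates 1 to 3, from 8 to 23 fragments per sham library and 94, 14 and 81 per MI library. MI replicates 1 and 3 were high, and MI replicate 2 lay inside the sham range. The mean in MI was 4.40 times that in sham (6.12 times without MI replicate 2), the largest ratio of the 9. Its log2 fold change among all genes above 0 was 0.43 ± 0.16 (SE, limma adjusted p = 0.189, exact permutation p = 0.114), 0.64 without MI replicate 2 (adjusted p = 0.00102) and 0.28 without MI replicate 1.

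Pycard encodes ASC, the adaptor that links the sensor to caspase-1. It measured 2.35, 2.24, 1.84 and 2.28 FPKM in the sham mice and 4.70, 1.70 and 3.07 FPKM in the MI mice. MI replicate 2 was the lowest of the 7 mice and the others of its group the highest. The ratio of means was 1.45 (1.78 without MI replicate 2), the smallest of the 9. The log2 fold change was 0.32 ± 0.23 (limma adjusted p = 0.295, exact permutation p = 0.286), which is 0.12 above that of the median gene, and 0.60 without MI replicate 2 (adjusted p = 0.00686). Pycard shares 485 exon bases with Gm45205 on the opposite strand, and since it is not stated whether counting used the strand, reads of these genes cannot be told apart.

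Casp1 encodes caspase-1, the protease that matures interleukin-1 beta and interleukin-18. Sham mice had 0.433, 0.394, 0.314 and 0.277 FPKM, and MI mice 1.58, 0.474 and 0.795 FPKM. The groups did not overlap, but MI replicate 2 had 64 fragments against up to 58 in a sham library. The ratio of means was 2.68 (3.36 without MI replicate 2), with a log2 fold change of 0.49 ± 0.19 (limma adjusted p = 0.189, exact permutation p = 0.0571) among all genes above 0, 0.67 without MI replicate 2 (adjusted p = 0.0191) and 0.27 without MI replicate 1. Of the 9 genes, Casp1 had the largest ratio of MI replicate 1 to MI replicate 3, at 1.99.

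Casp4 encodes caspase-11, the mouse sensor of cytosolic lipopolysaccharide, and lies 1562 bases downstream of Casp1 on chromosome 9. Its FPKM was 0.534, 0.485, 0.343 and 0.444 in the sham mice against 2.33, 0.611 and 1.75 in the MI mice. Each MI mouse was above each sham mouse, MI replicate 2 by the least (67 fragments against up to 58). The mean was 3.46 times higher in MI (4.52 times without MI replicate 2). The log2 fold change among all genes above 0 was 0.76 ± 0.24 (limma adjusted p = 0.188, exact permutation p = 0.0571), and 1.06 without MI replicate 2 (adjusted p = 0.000948).

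Gsdmd encodes gasdermin D, the pore former cut by both of these caspases. Its level was nearly the same in the 4 sham mice, at 2.11, 2.09, 2.04 and 2.21 FPKM, and was 9.17, 2.37 and 6.94 FPKM in the MI mice. MI replicate 2 exceeded the highest sham mouse, by 227 fragments against at most 202. The log2 fold change of 1.06 ± 0.34 (limma adjusted p = 0.108, exact permutation p = 0.0571) was the largest of the 9 with a pseudocount of 1, was 0.85 above that of the median gene and ranked 554 of the 11431 tested. The ratio of means was 2.92. With a pseudocount of 0.1, Casp4 (1.43) and Nlrp3 (1.306) were above Gsdmd (1.301), and with recovered fragments and voom, Nlrp3 (1.77) and Casp4 (1.60) were above it (1.33). Without MI replicate 2 it was 3.82, with a log2 fold change of 1.53 (adjusted p = 2.34e-05).

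**Figure D2:**
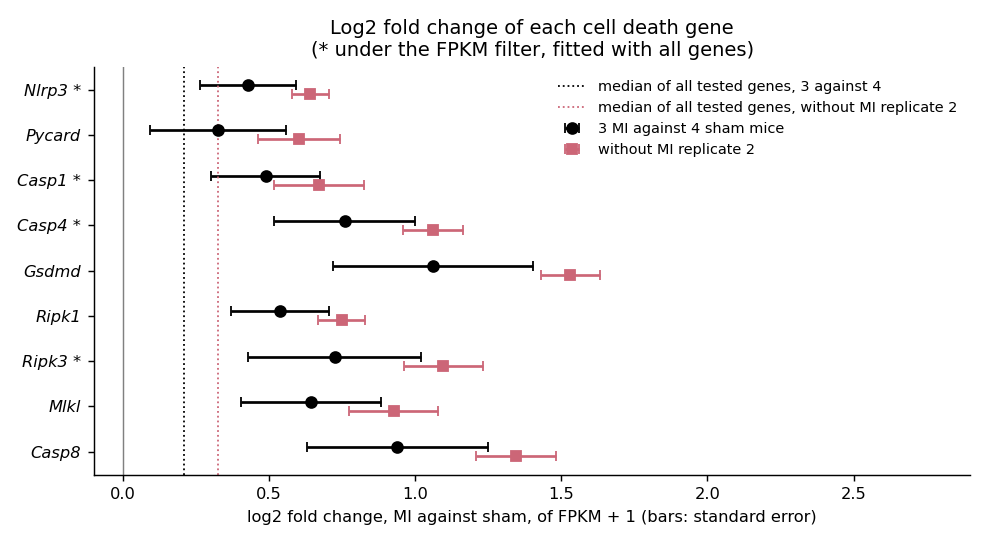
Log2 fold change of each gene, MI against sham, on the log2(FPKM + 1) scale (horizontal axis, bars are standard errors) with 3 MI and 4 sham mice (black) and without MI replicate 2 (red), beside the median of all genes tested (dotted lines at 0.21 and 0.33). Each value is above 0 and above its dotted line, from Pycard (0.32) to Gsdmd (1.06), and each is larger without MI replicate 2.

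The necroptosis genes followed the same mice. Ripk1, the kinase that decides between survival signalling and cell death below the tumour necrosis factor receptor, had 1.13, 0.903, 0.967 and 0.909 FPKM in the sham mice and 2.44, 1.14 and 2.20 FPKM in the MI mice. The groups did not overlap, yet MI replicate 2 was level with sham replicate 1, at 274 and 269 fragments. Its ratio of means was 1.97 (2.37 without MI replicate 2). The log2 fold change was 0.54 ± 0.17 (limma adjusted p = 0.108, exact permutation p = 0.0571) and 0.75 without MI replicate 2 (adjusted p = 0.000181). Ripk1 shares 241 exon bases with Serpinb6a on the opposite strand and 511 with the pseudogene Gm17084 on its own strand, so its reads may be split with them.

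Ripk3 encodes the kinase that phosphorylates MLKL. Its FPKM varied little between sham mice (0.548, 0.566, 0.615 and 0.595) and was 2.98, 0.560 and 1.87 in the MI mice. MI replicate 2 was within the sham range, and MI replicate 1 was the highest by far. The ratio of means was 3.10, and 4.17 without MI replicate 2. The log2 fold change among all genes above 0 was 0.72 ± 0.30 (limma adjusted p = 0.193, exact permutation p = 0.229), 1.10 without MI replicate 2 (adjusted p = 0.00214) and 0.42 without MI replicate 1.

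Mlkl, which encodes the executor of necroptosis, measured 1.13, 0.793, 0.907 and 0.847 FPKM in the sham mice and 3.37, 1.02 and 2.03 FPKM in the MI mice. Only sham replicate 1 was above an MI mouse, MI replicate 2. The ratio of means was 2.33 (2.94 without MI replicate 2), and the log2 fold change 0.64 ± 0.24 (limma adjusted p = 0.112, exact permutation p = 0.114), or 0.93 without MI replicate 2 (adjusted p = 0.00136) and 0.37 without MI replicate 1.

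Casp8 encodes caspase-8, which starts apoptosis below death receptors and holds back necroptosis. It had 2.95, 1.92, 2.01 and 2.07 FPKM in the sham mice and 7.81, 2.51 and 6.57 FPKM in the MI mice. Sham replicate 1 was above MI replicate 2, so the groups overlapped in this pair of mice. Its log2 fold change of 0.94 ± 0.31 (limma adjusted p = 0.108, exact permutation p = 0.114) was second to Gsdmd on that scale, and the ratio of means was 2.51. Without MI replicate 2 these were 1.34 (adjusted p = 0.000143) and 3.21.

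To ask whether steps of a route differed by unequal amounts, the difference of log2(FPKM + 1) between 2 genes was taken within each mouse, for 7 pairs, and compared between MI and sham mice. With a pseudocount of 1, the groups overlapped in each of the 7 pairs and no pair had an exact permutation p under 0.114. The difference Gsdmd minus Casp1 was between 1.12 and 1.33 in the sham mice and was 1.98, 1.20 and 2.15 in MI replicates 1 to 3, so the MI replicates 1 and 3 were high on this scale. The plain ratio of FPKM, however, was 4.88 to 7.97 in sham mice and 5.79, 5.01 and 8.74 in MI mice, with MI replicate 3 alone above the sham range. The mean of the log2 difference was 0.57 higher in MI (exact permutation p = 0.171, 0.4 adjusted over the 7 pairs) and 0.86 higher without MI replicate 2, but 0.39 without MI replicate 3 and 0.22 with a pseudocount of 0.1 (exact permutation p = 0.457). Casp4 minus Casp1 was between 0.031 and 0.18 in sham mice and 0.37, 0.13 and 0.61 in MI mice, with a mean 0.27 higher in MI (exact permutation p = 0.114, adjusted 0.4) and 0.39 higher without MI replicate 2, but 0.15 without MI replicate 3. Ripk3 minus Casp8, the kinase against its brake, was between -1.35 and -0.90 in sham mice and -1.15, -1.17 and -1.40 in MI mice, a difference of -0.21 (exact permutation p = 0.171, adjusted 0.4). It was -0.32 without sham replicate 1, -0.25 without MI replicate 2, -0.13 without MI replicate 3 and 0.059 with a pseudocount of 0.1. Casp8 was thus the higher gene of this pair in every mouse.

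For Ripk3 minus Ripk1 the mean was 0.19 higher in MI (exact permutation p = 0.4, adjusted 0.6). It was 0.35 higher without MI replicate 2 and 0.37 with a pseudocount of 0.1, but 0.013 without MI replicate 1. In MI replicates 1 and 3 this difference was 0.21 and -0.16, above the sham range of -0.46 to -0.26. In MI replicate 2 it was -0.46. Mlkl minus Ripk3 differed by -0.082 between the groups (exact permutation p = 0.514, adjusted 0.6), by -0.17 without MI replicate 2 and by -0.22 with a pseudocount of 0.1, but by -0.020 without sham replicate 1 and -0.023 without MI replicate 3. Its values in MI replicates 1 and 3 were 0.14 and 0.078, below the sham range of 0.195 to 0.46. In MI replicate 2 the value was 0.37. Nlrp3 minus Pycard differed by 0.10 (exact permutation p = 0.457, adjusted 0.6). It differed by 0.22 without MI replicate 1, 0.038 without MI replicate 2, 0.047 without MI replicate 3 and 0.066 without sham replicate 4. With a pseudocount of 0.1 this pair differed by 0.90 (exact permutation p = 0.0571, the smallest possible) and after quantile normalization by 0.24 (exact permutation p = 0.114). Casp1 minus Il18, the caspase against its substrate, differed by -0.051 (exact permutation p = 0.8, adjusted 0.8) by -0.21 without MI replicate 2 and by 0.059 without MI replicate 1. A p of this size does not show that the genes of a pair moved alike.

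**Figure D3:**
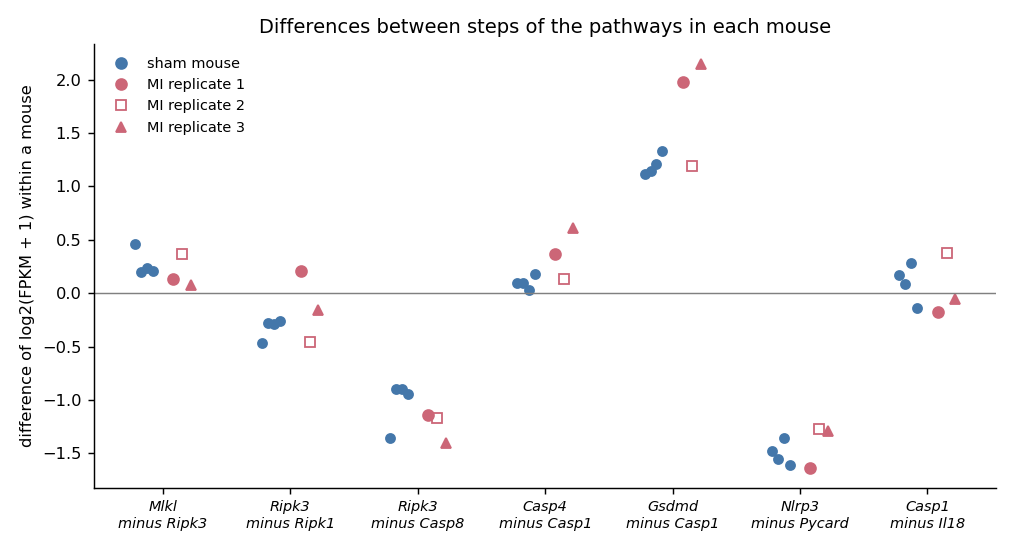
Difference of log2(FPKM + 1) between the genes of 7 pairs within each mouse (vertical axis), for 4 sham (blue) and 3 MI (red) mice. MI replicates 1 and 3 lie above the sham mice for Gsdmd minus Casp1 (1.98 and 2.15), Casp4 minus Casp1 (0.37 and 0.61) and Ripk3 minus Ripk1 (0.21 and -0.16). They lie below the sham mice for Mlkl minus Ripk3 (0.14 and 0.078). With a pseudocount of 1 the groups overlap in each of the 7 pairs.

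The genes that act before and after these 9 were read from lists by role. Of 14 inflammasome sensors and activators, only Nek7 and Txnip passed the filter and 0 had an unadjusted p under 0.05 in limma (0 at an adjusted p, also without MI replicate 2), where 29.5% of all genes tested were higher at the unadjusted threshold. Nek7, which licenses NLRP3, was split among sham mice (2.11, 7.57, 7.74 and 2.46 FPKM) and was 8.83, 7.55 and 7.69 FPKM in MI mice, with a log2 fold change of 0.76 ± 0.41 (0.80 without MI replicate 2). Txnip, an NLRP3 partner, had a log2 fold change of 0.87 ± 0.38 (0.67 without MI replicate 2), with its highest value, 125.9 FPKM, in MI replicate 2. Among those below the filter, Nlrp1a, Naip1 and Naip5 did not overlap between groups, being higher in MI, which is 3 of the 14 where 12.0% of all genes above 0 did so. With MI replicate 2 left out it was 10 of the 14, against 43.4%. Naip1 had 0 to 10 fragments per library, with 0 in 3 of the 4 sham libraries. Nlrp1 and Naip genes have near-identical copies, so their reads may be divided among them.

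Of 8 caspase-1 substrates and their controls, Il1r1 and Il18bp were tested. The groups did not overlap, with MI higher, for 3 of the 8 (12.0% of all genes above 0), and for 7 without MI replicate 2 (43.4%). Il1r1, the interleukin-1 receptor, had a log2 fold change of 1.29 ± 0.50 (unadjusted p under 0.05 in limma, as 29.5% of all genes tested), and Il18bp, the decoy of interleukin-18, 0.22 ± 0.19. With MI replicate 2 left out these were 1.94 (adjusted p = 0.000500, past 0.05 as 57.0% of all genes tested) and 0.39 (adjusted p = 0.0743). The cytokines themselves were below the filter, and Il1b was picked out after its values were seen. Il1b had 3 to 7 fragments in each sham library (0.0543 to 0.137 FPKM) and 180, 0 and 215 in the MI libraries (3.51, 0 and 3.87 FPKM), so it was high in MI replicates 1 and 3 and without a fragment in MI replicate 2. Il18 was 0.0795 to 0.405 FPKM in sham mice and 1.91, 0.137 and 0.869 FPKM in MI mice, with overlap between the groups.

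Guanylate-binding proteins, which open vacuoles and coat bacteria for caspase-11, were higher in MI at an unadjusted p under 0.05 for 3 of the 3 tested (4 of the 5 listed were in the table), where 29.5% of all genes tested were. Gbp2 was between 5.93 and 6.81 FPKM in sham mice and was 17.3, 8.46 and 14.2 FPKM in MI mice, without overlap, and had a log2 fold change of 0.94 ± 0.21. Gbp3 (0.73 ± 0.26) and Gbp7 (0.51 ± 0.22) overlapped between the groups. Leaving out MI replicate 2, all of them rose, by 1.21, 1.08 and 0.74, where 57.0% of all genes tested rose. Members of this family share near-identical stretches and their counts are uncertain. Of 4 other genes for pores and membrane rupture, Ninj1, which tears the membrane after the pore has formed, was tested. It was between 9.65 and 12.9 FPKM in sham mice and 21.2, 14.9 and 17.3 FPKM in MI mice, without overlap even with MI replicate 2, and its log2 fold change was 0.68 ± 0.15 (unadjusted p under 0.05, limma adjusted p = 0.108), and 0.79 without MI replicate 2 (adjusted p = 0.00137). Gsdme, an apoptosis-linked gasdermin, was below the filter and did not overlap between the groups either, and Gsdmc had 0 fragments in each mouse.

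On the necroptosis side, 9 of 13 death receptors, toll-like receptors and adaptors were tested, and 4 were higher in MI at an unadjusted p under 0.05, with 0 lower, against 29.5% higher and 9.85% lower among all genes tested. Of the 9, 8 rose at an adjusted p under 0.05 without MI replicate 2, against 57.0%. The median log2 fold change of these 9 was 0.38, against 0.21 for all genes tested. The tumour necrosis factor receptors led, Tnfrsf1b with 1.49 ± 0.51 and Tnfrsf1a with 1.17 ± 0.39, whereas the adaptors Ticam1 (0.16 ± 0.13) and Fadd (-0.10 ± 0.11) did not pass. Leaving out MI replicate 2, these were 2.21, 1.72, 0.31 and -0.042, and Ticam1 then passed too (adjusted p = 0.00138). Tnfrsf1a, which starts the route to RIPK1, was 9.34 to 9.93 FPKM in sham mice and 38.6, 10.3 and 30.04 FPKM in MI mice, without overlap. Zbp1, a sensor of Z-form nucleic acid that engages RIPK3, was below the filter and was also picked out after its values were seen. It was 0.141 to 0.305 FPKM in sham mice and 2.99, 0.475 and 1.97 FPKM in MI mice, so that all MI mice were above all sham mice.

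Of 14 genes of the ubiquitin and kinase checkpoint on RIPK1, which act mostly as brakes on necroptosis, 13 were tested and 5 were higher in MI at an unadjusted p under 0.05, with 0 lower, at a median log2 fold change of 0.31, against 29.5% of all genes tested. Otulin (0.73 ± 0.25) and Birc3 (0.66 ± 0.24), which edit the ubiquitin chains on RIPK1, were at the top. Map3k7 (-0.09 ± 0.18), a kinase that holds RIPK1 in check, and Xiap (-0.39 ± 0.32) were at the bottom. Xiap was 4.28, 3.75, 4.74 and 1.20 FPKM in the sham mice, so that sham replicate 4 fell below the MI mice (1.98 to 2.43 FPKM) and the others lay above them. Without MI replicate 2, 11 of the 13 rose at an adjusted p under 0.05 and 0 fell, against 57.0% and 14.7% of all genes tested. Among them is Cyld, a deubiquitinase that favours necroptosis, with a log2 fold change of 0.20 ± 0.10 (0.28 without MI replicate 2). In the fit without that mouse Otulin had 1.06, Birc3 0.99, Map3k7 0.13 and Xiap -0.44.

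The 5 genes of membrane repair and the mitochondrial partners were the only one of the 8 pathway lists with a gene lower in MI at an unadjusted p under 0.05, 1 of the 5 against 9.85% of all genes tested, and 0 were higher against 29.5%. Ppif, the cyclophilin of the mitochondrial permeability pore, was 31.5 to 35.4 FPKM in sham mice and 17.7, 31.7 and 20.1 FPKM in MI mice, with a log2 fold change of -0.58 ± 0.19 (unadjusted p under 0.05, limma adjusted p = 0.108). It fell without MI replicate 2 (-0.82, adjusted p = 0.000104), where 14.7% of all genes tested fell. Chmp4b (0.31 ± 0.16) and Chmp2a (0.23 ± 0.13), parts of the machinery that sheds damaged membrane, did not pass at an unadjusted p of 0.05, and Pgam5, a mitochondrial phosphatase, had -0.0042 ± 0.11. Chmp4b (0.52, adjusted p = 0.000209) and Chmp2a (0.37, adjusted p = 0.00317) rose without MI replicate 2, and there Pgam5 had 0.073. Of 12 apoptosis genes, 9 were tested and 5 were higher at an unadjusted p under 0.05, with 0 lower, at a median of 0.48, against 29.5% of all genes tested. Of these 9, 8 rose without MI replicate 2, against 57.0%. Bax (0.82 ± 0.34) and Bak1 (0.55 ± 0.23), the pore formers of the mitochondrial outer membrane, had the largest log2 fold changes, and Bcl2l1 (0.20 ± 0.095) and Diablo (-0.07 ± 0.082) the smallest. With MI replicate 2 left out, these 4 had 1.303, 0.85, 0.23 and -0.033.

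**Figure D4:**
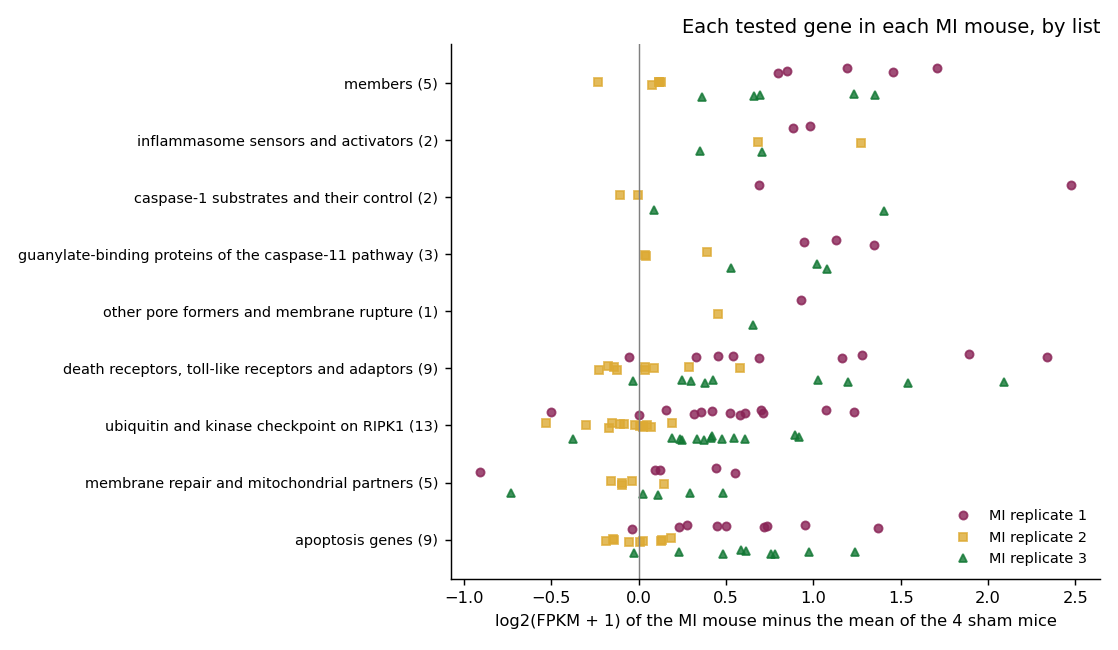
Log2(FPKM + 1) of each tested gene in each MI mouse minus the mean of the 4 sham mice (horizontal axis), in rows by list with the number of genes tested in brackets. Cell type markers are not shown. The 5 of the 9 death genes that passed the filter lie to the right of 0 in MI replicates 1 (circles) and 3 (triangles) and near 0 in MI replicate 2 (squares), and Txnip and Nek7 are the genes furthest right in MI replicate 2.

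Markers of cell types moved with the same mice. The summed FPKM of 12 macrophage and monocyte markers was 202 to 257 in sham mice and 1344, 245 and 1152 in MI replicates 1 to 3, which is 5.82, 1.06 and 5.00 times the sham mean, while the summed FPKM of the 9 death genes was 9.14 to 11.4 and 35.2, 10.5 and 25.9. Of those 12 markers 10 were tested, all 10 had an unadjusted p under 0.05 with MI higher, and 7 of 12 did not overlap, against 29.5% of all genes tested and 12.0% of all genes above 0. Fcgr1, among these 10, passed the filter only through the MI mice (0.525 to 0.772 FPKM in sham mice). Leaving out MI replicate 2, the same 10 rose at an adjusted p under 0.05 (57.0% of all genes tested) and 12 of 12 did not overlap (43.4% of all genes above 0). The 8 fibroblast markers summed to 122 to 145 in sham mice and 2492, 232 and 1923 in MI mice, with 7 of 8 not overlapping, and 8 of 8 without MI replicate 2. In MI replicate 2 they were at 1.76 times the sham mean, where the 9 death genes were at 0.781 to 1.35 times. The 8 cardiomyocyte markers summed to 13139 to 14262 in sham mice and 9217, 13194 and 9763 in MI mice, with 4 of 8 lower at an unadjusted p under 0.05, against 9.85% of all genes tested, and 7 of 8 lower at an adjusted p under 0.05 without MI replicate 2, against 14.7%.

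The 9 lymphocyte markers summed to 0.763 to 0.970 FPKM in sham mice and 27.8, 1.21 and 5.87 FPKM in MI mice, with MI replicate 1 at 4.74 times MI replicate 3 and MI replicate 2 above the sham range. The 8 neutrophil markers summed to 0.355 to 1.33 FPKM in sham mice and 16.0, 0.503 and 7.77 FPKM in MI mice, of which Ly6g was at 0 in every mouse and Retnlg and Ngp were at 0 in every sham mouse. The sum of the 6 endothelial markers was 0.887 to 1.28 times the sham mean in the MI mice, with MI replicate 2 (112) below the sham range of 120 to 137, and Vwf was above the sham range in every MI mouse (3.53 to 7.59 FPKM against 2.33 to 3.50) and Kdr below it (16.4 to 17.7 against 18.1 to 21.5). The part of these cell types in the values of the 9 genes was not tested.

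**Figure D5:**
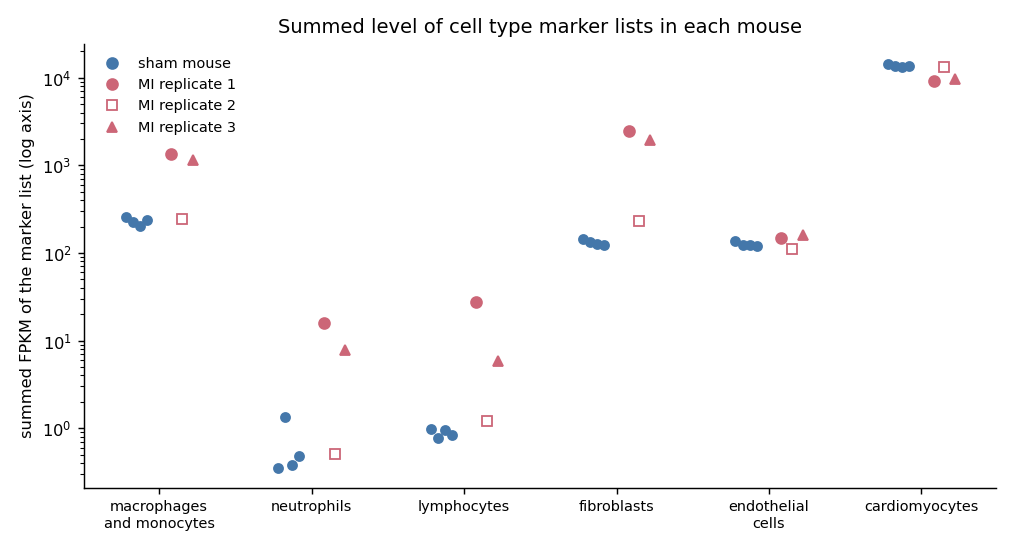
Summed FPKM (log axis) of marker lists of 6 cell types in each sham (blue) and MI (red) mouse. Macrophage, neutrophil, lymphocyte and fibroblast sums are high in MI replicates 1 and 3, cardiomyocyte sums are low in them (9217 and 9763), and MI replicate 2 (open square) lies inside the sham range for macrophages, neutrophils and cardiomyocytes, above it for fibroblasts (232) and lymphocytes (1.21) and below it for endothelial cells (112).

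The genes whose pattern over the 7 mice was most like that of a death gene were found by Pearson's r on log2(FPKM + 1), as a description. For Gsdmd they were Fmr1, Inpp5d and Nckap1l (each above an r of 0.999), the latter pair being genes of blood cells, and 3509 tested genes had an r above 0.95 with it. Those for Casp8 were Pcid2, Aaas and Smap1, those for Ripk1 were Gosr2, Dact1 and Aaas, and those for Mlkl were Pramef8, Pkn2 and Polr3d, with 2697, 3053 and 1548 genes above 0.95. For Pycard they were Nop2, Tcof1 and Glod4, and only 287 genes reached 0.95. These correlations rest on 7 mice in 2 groups, and nothing about shared function was read from them.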

How the data were processed

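RNA of myocardial tissue was sequenced in 7 mice, 1 library each, grouped by their labels. The authors deposited FPKM values for 56980 genes (0 columns of values left unused). The submitters' processing notes name CASAVA 1.8, HISAT2, SAMtools 1.3.1, edgeR and mm10, without role or order. The annotation used and whether counting used the strand are not given in the sources used here. Identifiers were matched to GENCODE M21 on GRCm38 (52073 with a symbol). The FPKM values stepped by whole fragments (within 0.05) for 30498 of the 30504 genes above 0, which gave depths and fragment numbers.

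Log2(FPKM + 1) was compared between MI and sham with limma 3.58.1 (R 4.3.3) by lmFit and a trended eBayes, with no covariate and with Benjamini-Hochberg adjustment at 0.05 over all 11431 genes tested. The p-values measure the spread between these mice. Single genes and pairs were tested by exact two-sided permutation over the 35 assignments of mice to groups. Scripts were checked on simulated data. Other tools were SciPy 1.17.1, NumPy 2.4.6, pandas 2.3.3 and matplotlib 3.10.9 under Python 3.11.15. Genes named were the 9, up to 4 per list with the largest and smallest log2 fold changes among those tested, and 3 most like each. Il1b, Il18, Zbp1, Gsdme, Gsdmc, Nlrp1a, Naip1, Naip5, Cyld, Fcgr1, Ly6g, Retnlg and Ngp fell outside this rule and were named after their values were seen. The 9 genes, the lists and the markers were chosen with earlier results of these data known. Alternatives were other pseudocounts, filters, scalings, limma settings, a replicate block, recovered fragments and each mouse left out.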

Additional observations from a re-analysis of the deposited data

Results flagged for a closer look

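In 46 sets of 4 sham values, the gap of the highest or lowest mouse to its neighbour, as a share of the range, was above Dixon's critical value in 9 sets, where chance gives about 1 in 20, or 2.3. Sham replicate 1 was the mouse in 6 of them. The sets are not independent, since the pairs reuse the values of single genes, such as Ripk3 and Casp8. The excess of 9 over 2.3 can therefore be overstated. Among the death genes it was highest for Casp8 (share 0.853), at 2.95 FPKM against 2.07 in the next mouse, and this is the mouse that overlapped MI replicate 2. It was also highest for Mlkl minus Ripk3 (0.832, a difference of 0.46 on the log2 scale against 0.24), and lowest for Ripk3 minus Ripk1 (0.874, -0.46 against -0.28) and Ripk3 minus Casp8 (0.891, -1.35 against -0.95). It was lowest for Txnip (0.834, at 25.7 FPKM against 60.5) and for Bcl2l1 (0.940, at 1.54 FPKM against 1.96). Sham replicate 4 was lowest for Tnfrsf1b (0.834, at 2.58 FPKM against 3.00) and Chmp2a (0.871, at 18.3 FPKM against 20.2). Sham replicate 2 was highest for the summed neutrophil markers (0.871, at 1.33 FPKM against 0.481). The causes were not tested.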

How the results depend on the processing

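The log2 fold change of each of the 9 genes stayed above 0 under each alternative run (15 to 17 per gene), from 0.045 to 0.60 for Pycard and from 0.74 to 1.53 for Gsdmd. The number of genes past an adjusted p of 0.05 (limma) was 0 of 5, with 4 at an unadjusted p under 0.05, where 29.5% of all genes tested were higher in MI. It was 5 with sample weights, where 7636 of all 11431 genes tested passed with MI higher. These weights did not converge and gave nearly all weight to MI replicate 3. It was 0 to 5 with each mouse left out, the 5 without MI replicate 2 (57.0% of all genes tested). With no filter and without MI replicate 2, an alternative chosen after seeing the data, it was 9 (35.8% of all genes above 0). The number whose groups do not overlap was 4 (12.0% of all genes above 0), and 4 to 9 with each mouse left out, with 7 without sham replicate 1 (14.9% of all genes above 0 then do not overlap) and 9 without MI replicate 2 (43.4%). Ripk3 minus Casp8 turned from -0.21 to 0.059 with a pseudocount of 0.1, Nlrp3 minus Pycard moved from 0.10 to 0.90 (exact permutation p = 0.0571) and Gsdmd minus Casp1 from 0.57 to 0.22. Casp1 minus Il18 ranged from -0.21 to 0.059 with each mouse left out, and was 0.010 without sham replicate 3, 0.059 without MI replicate 1 and 0.0016 without MI replicate 3. The causes were not tested. Over all genes tested, calls at an adjusted p of 0.05 numbered 2 with MI higher and 1 with MI lower, 10 and 5 with quantile or median-ratio scaling, 7636 and 2316 with sample weights, and 6512 and 1683 without MI replicate 2. Same-numbered mice did not deviate together (correlations of 0.074, -0.016 and -0.080). With MI replicate 2 so far from the other MI mice, these correlations cannot tell whether the numbers pair the mice. In the fit with the replicate block 0 of the 9 genes passed, Gsdmd having 1.07 (limma adjusted p = 0.240). Nlrp3 rests on 8 to 23 fragments in a sham library, which limits its precision.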
